A study of Mus musculus with 15 samples.

Results

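The 42 genes described here encode the building blocks and regulators of the actin and tubulin cytoskeleton. They were taken by gene symbol from a fixed list of actins, actin regulators, myosins, tropomyosins, adhesion-linked proteins, tubulins and vimentin. All 42 symbols were found among the 25239 genes of the table, and all 42 were among the 17835 genes that passed the filter on low counts. RNA immunoprecipitation followed by sequencing (RIP-seq, in which an antibody pulls down a protein with the RNA bound to it) was used to look for transcripts bound by Arid5a in ST2 cells, a stromal line established from mouse bone marrow.

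The 15 libraries fall into 4 groups, defined by 2 antibodies and 2 culture conditions. Arid5a was precipitated from cells given IL-17 at 200 ng/mL for 3 h (4 libraries), and mouse IgG2b was used on IL-17-treated cells as the control precipitation (3 libraries, numbered 2, 3 and 4). The same antibodies were used on cells kept in medium alone for that time (4 Arid5a and 4 IgG libraries). All cells were trypsinised and fixed with 1% formaldehyde before lysis, so every group carries both treatments, and all libraries came from the same cell line. Libraries of unprecipitated RNA were not analysed here, so a level in a RIP combines how much of a transcript the cells held with how much of it was recovered. In such bulk samples, fewer cells of a type and less RNA per cell cannot be told apart. Nothing in the labels says that replicates came from separate cultures, and the p-values then measure the spread between these libraries only.

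Actin filaments are built from actin monomers and are nucleated by the Arp2/3 complex, severed by cofilins, stabilised by tropomyosins and pulled on by nonmuscle myosin II. Microtubules are built from dimers of alpha- and beta-tubulin, and vimentin forms the intermediate filaments of mesenchymal cells. Many actin-related genes are targets of serum response factor (SRF), which binds a short AT-rich element called the CArG box, and whose coactivators of the MRTF family are held back by free actin monomers. Arid5a is an RNA-binding protein of the AT-rich interaction domain family, known for stabilising mRNAs of inflammatory genes, and IL-17 is a cytokine that acts on stromal cells.

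Because several of the genes are textbook SRF targets, their promoters were searched for a CArG box. Promoter windows of 300 bases, from 250 bases before to 50 bases after a transcription start, were taken from RefSeq (GRCm38.p6, the assembly that mm10 names), and 38 of the 42 genes matched with 45 windows, since some genes have several starts. Windows for Actb, Csrp2, Tagln and Tubb6 were not used here. The CArG box was taken as an exact match of 10 bases, CC, then only A or T, then GG, a pattern that reads the same on both strands. It was found in 5 of the 38 genes (13.2%), against 488 of 27025 gene symbols with a window (1.81%). Boxes with a mismatch or outside the windows were not searched for, so the other genes may still hold one. The sequences below are shown because they are the windows of the list that hold an exact match. They are printed on the gene's strand with the box in capitals. They lie at chr11:120348541-120348620 on the minus strand for Actg1, chr10:79988509-79988588 on the plus strand for Cnn2, and chr10:128493015-128493094 on the minus strand for Myl6. The others lie at chr2:156775268-156775347 on the plus strand for Myl9 and chr14:20929148-20929215 on the plus strand for Vcl.
Actg1: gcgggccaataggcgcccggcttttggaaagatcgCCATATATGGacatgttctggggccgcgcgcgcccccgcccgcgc
Cnn2: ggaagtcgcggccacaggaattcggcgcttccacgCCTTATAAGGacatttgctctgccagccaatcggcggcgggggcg
Myl6: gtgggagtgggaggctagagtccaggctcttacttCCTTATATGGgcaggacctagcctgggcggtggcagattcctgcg
Myl9: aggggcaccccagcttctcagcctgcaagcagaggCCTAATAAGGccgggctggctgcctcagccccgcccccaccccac
Vcl: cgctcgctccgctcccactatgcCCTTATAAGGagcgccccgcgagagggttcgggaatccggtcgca
The box begins 50 bases before the window's own start in Myl6, 56 in Cnn2, 90 in Actg1, 161 in Myl9 and 227 in Vcl. These starts need not be the outer end of the annotated gene, and the Myl6 window belongs to a start inside the gene span, whereas the window of its outer start held no box. A match of letters is a description of the window and not a measured binding site.

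The libraries held between 939139 (IgG RIP in medium, replicate 2) and 5713913 counts. The cytoskeleton genes took 4.37% to 5.26% of them. Replicates differed by more than counting noise in every group. ST2 identity was visible in the stromal markers, with Col1a1, Fn1 and Cxcl12 high and Thy1, Lum and Dcn close to 0. The 11 stromal markers summed to 17790 to 28160 CPM (counts relative to the scaled library size), whereas 8 haematopoietic markers, of which 2 had a mean of at least 1 FPKM, summed to 4.203 to 20.5 CPM. A pair of libraries stood apart. Replicate 2 of the IgG RIP in medium had the lowest total, and replicate 4 of the Arid5a RIP with IL-17 was the lowest of its group for 37 of the 42 genes.

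Compared per length, in deposited FPKM (fragments scaled by length and mapped total), the genes were among the most abundant RNAs in every precipitation. As means of the 4 group means, 15 of the 42 lay in the top 1% of all genes and 38 in the top 5%. Vim, the gene of vimentin, was first at 4391 FPKM, and Actb, the gene of cytoplasmic beta-actin, followed at 4280 FPKM. Vim exceeded Actb in only 9 of 15 libraries, so the order of the pair was not settled, but Actb exceeded the third gene in all 15.

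Below these stood Myl6 (the essential light chain of nonmuscle myosin) at 2157 FPKM and Tmsb10 (a thymosin, which holds actin monomers) at 1978 FPKM. Actg1, the other cytoplasmic actin, and Acta2, the smooth muscle actin, had 1664 and 1591 FPKM. Cfl1, Pfn1, Tpm1 and Tmsb4x lay between 1061 and 1336 FPKM, and Myh9, the main nonmuscle myosin II heavy chain, at 904.8 FPKM. These neighbours swapped places between libraries, whereas Myh9 exceeded the next gene in all 15.

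Tpm4, Tpm2, Tuba1b and Tubb5 followed at 512.9 to 663.2 FPKM. A long run of genes between 182.1 and 358.8 FPKM came next, in the order Tagln, Myl12a, Actn1, Flna, Tagln2, Actn4, Cnn2, Myl9, Tuba1a and Tpm3. Arpc2, Csrp2, Vcl, Arpc3, Tuba1c, Gsn, Tubb6 and Csrp1 had 102.1 to 165.8 FPKM, and Myh10, Capzb, Arpc5, Tubb2a, Tln1 and Zyx had 60.34 to 99.75 FPKM. The 3 lowest were Cfl2 at 27.09, Cnn1 at 19.12 and Pfn2 at 4.722 FPKM. Pfn2, the neuronal profilin, had as few as 11 counts in a library, so that its folds carry standard errors of 0.45 to 0.67 on the log2 scale.

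**Figure D1:**
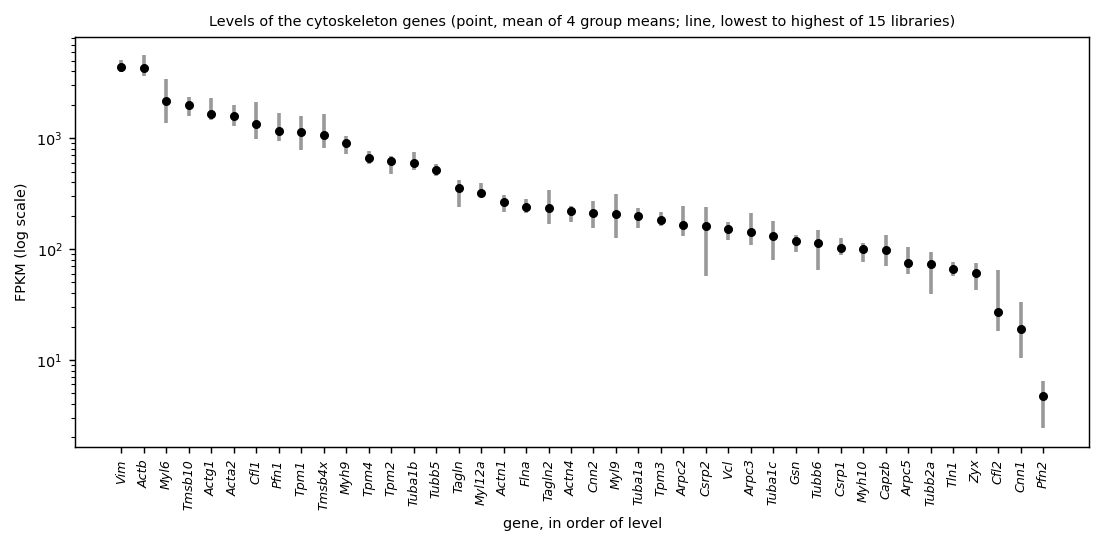
Levels of the 42 cytoskeleton genes in FPKM on a log scale, in order of level. Points are the mean of the 4 group means and lines run from the lowest to the highest of 15 libraries; Vim at 4391 and Actb at 4280 FPKM lead and Pfn2 at 4.722 FPKM is last.

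Within families, a single gene usually supplied most of the summed FPKM. Over the 15 libraries Cfl1 made up 97.9% of the cofilins and Pfn1 99.6% of the profilins. Actb made up 56.9% ± 1.23 (SD, n = 15) of the 3 actins, with Actg1 at 22.0% and Acta2 at 21.1%. Among the listed tubulins, Tuba1b supplied 64.5% of the alpha chains and Tubb5 73.6% of the beta chains. The makeup of the actins was close to constant, since Actb ranged only from 54.7% to 59.5%. The transgelins varied more. Tagln2 made up 47.1% ± 5.59 of the pair in the Arid5a RIP with IL-17, 38.3% ± 5.52 in the IgG RIP with IL-17, 32.1% ± 2.04 in the Arid5a RIP in medium and 40.1% ± 7.14 in the IgG RIP in medium (SD, n = 4, 3, 4 and 4). Reads of near-identical genes can be split between them by the estimation. Counts of 12 of the 42 genes were not whole, to within 0.001, in at least 1 library, among them Actb, Actg1, Myl6, Myh9, Tubb2a and the 3 alpha-tubulins.

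Differences were tested with edgeR's quasi-likelihood test on the counts of all 15 libraries, and a gene was called higher or lower at a Benjamini-Hochberg adjusted p below 0.05 over all 17835 genes. Levels in the following are CPM scaled by TMM (trimmed mean of M-values), folds are log2 differences ± the standard error (SE) of the fit, and every adjusted p comes from this test. The comparisons share libraries, so their folds are set side by side and not counted as separate evidence.

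In the Arid5a RIP, 11 of the 42 genes rose with IL-17 against medium and 0 fell, where 4.84% of all genes tested rose and 0.813% fell. Of 5394 well-expressed genes (average log2 CPM 5 or more, a class that holds 41 of the 42) 15.4% rose. The risers were the 3 actins Actb, Actg1 and Acta2, the contractile genes Tpm1, Myl6 and Cnn1, the turnover genes Cfl1 and Arpc2, and Csrp2, Tagln2 and Tuba1c. The median log2 fold of the 42 was 0.27, beside 0.30 for well-expressed genes and -0.12 for all genes tested. The list as a whole therefore moved about as far as other abundant RNAs.

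This shift of abundant RNAs depended on the scaling. When TMM factors were computed from well-expressed genes alone, the median of the 42 was -0.03 and only Cfl1 and Tagln2 remained called. With these factors 0.65% of all genes tested rose and 1.16% fell, so that more genes fell than rose. Without replicate 4 of the Arid5a RIP with IL-17, 23 of the 42 rose, and without replicate 1 of that group 5 rose (Tpm1, Myl6, Cfl1, Csrp2 and Tagln2). The shares of all genes called in these fits are not given here. Groups did not overlap for 9 of the 42, all higher with IL-17, where 10.7% of all genes and 29% of well-expressed genes were apart in that direction and 9.25% of all genes in the other. An unadjusted p below 0.05 was reached by 22 of the 42, by 22.3% of all genes and by 41% of well-expressed genes. Summed haematopoietic markers ran from 6.38 to 11.04 CPM in the Arid5a RIP with IL-17, against 13.63 to 18.97 CPM in medium, and 5 striated muscle markers from 88.42 to 223.4 CPM, against 195.8 to 276.7 CPM. Their part in the result was not tested.

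In the IgG RIP the same treatment raised Csrp2 and lowered Cfl2, and the other 40 genes were not called. Of all genes tested, 0.258% rose and 0.235% fell in this comparison. The median of the 42 was -0.03, beside -0.04 for well-expressed genes and 0 for all genes. Groups were apart with IL-17 higher for Tpm1, Myl6 and Csrp2, and with IL-17 lower for Cfl2, Pfn1, Cnn2, Tpm4 and Tubb5. Of all genes 4.27% were apart with IL-17 higher and 3.32% with IL-17 lower, and of well-expressed genes 4.91% and 6.38%. An unadjusted p below 0.05 was reached by 8 of the 42, by 11.1% of all genes and by 18.8% of well-expressed genes. Both calls held with upper-quartile factors, library totals, factors from well-expressed genes and DESeq2, and Csrp2 held without any 1 library. The Cfl2 call was lost in 11 of the 15 removals of 1 library, with folds of -0.74 without replicate 2 of the IgG RIP in medium and -0.92 to -1.11 in the other 10.

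Set against IgG in IL-17-treated cells, Arid5a gave 0 calls among the 42 in either direction, where 0.0561% of all genes were called higher and 0.0112% lower. At an unadjusted p below 0.05 the count was 9 by edgeR, beside 8.95% of all genes and 14.1% of well-expressed genes. DESeq2 called 0 of the 42 and limma voom with quality weights called 8, with their shares of all genes not given here. The median of the 42 was 0.15, the same as over well-expressed genes, and -0.01 over all genes. The groups were apart with Arid5a higher for Tpm2, Csrp1, Tpm4, Myl6 and Cnn1, where 5.3% of all genes and 11.2% of well-expressed genes were apart in that direction, and 4.39% of all genes in the other. Without replicate 4 of the Arid5a RIP with IL-17 the test called Actb, Actg1 and Cfl1, with the share of all genes called not given here. Cfl1 (0.54 ± 0.14), Tagln2 (0.51 ± 0.15) and Cnn1 (0.64 ± 0.27) had the highest folds, and Tubb2a (-0.20 ± 0.21), Tubb6 (-0.18 ± 0.17) and Arpc5 (-0.13 ± 0.16) the lowest.

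In medium, Arid5a against IgG called Cfl2 lower and no gene of the list higher, where 0.572% of all genes were lower and 0.0561% higher. The median of the 42 was -0.16, beside -0.19 for well-expressed genes and 0.04 for all genes tested. The groups were apart with Arid5a lower for 9 of the 42, where 4.05% of all genes and 11.2% of well-expressed genes were apart in that direction, and 5% of all genes in the other. An unadjusted p below 0.05 was reached by 15 of the 42, by 12.8% of all genes and by 23.8% of well-expressed genes. The Cfl2 call was lost under 21 of 28 alternatives, including the other scalings with edgeR and the removal of replicate 2 (-0.59) or 3 (-0.82) of the IgG RIP in medium. Myl9 (0.45 ± 0.18), Csrp2 (0.27 ± 0.19) and Tubb2a (0.18 ± 0.20) had the highest folds here, none of them called.

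The change of the Arid5a against IgG difference with IL-17, which is the interaction of antibody and treatment, was called higher for Cfl1, Pfn1, Arpc2 and Tagln2 and lower for 0 of the 42. Over all genes 0.869% were higher and 0.107% lower, and over well-expressed genes 2.82% were higher. An unadjusted p below 0.05 was reached by 21 of the 42, by 16.3% of all genes and by 28.3% of well-expressed genes. The median of the 42 was 0.37, beside 0.34 for well-expressed genes and -0.05 for all genes tested. With factors from well-expressed genes the median was 0.04 and no gene of the table was called. Leaving out replicate 3 of the IgG RIP in medium, replicate 2 or 3 of the Arid5a RIP in medium, replicate 2 of the IgG RIP with IL-17, or replicate 1 or 2 of the Arid5a RIP with IL-17 left 0 of the 42 called. Leaving out replicate 4 of the Arid5a RIP with IL-17 gave 11, and the share of all genes called in these fits is not given here.

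**Figure D2:**
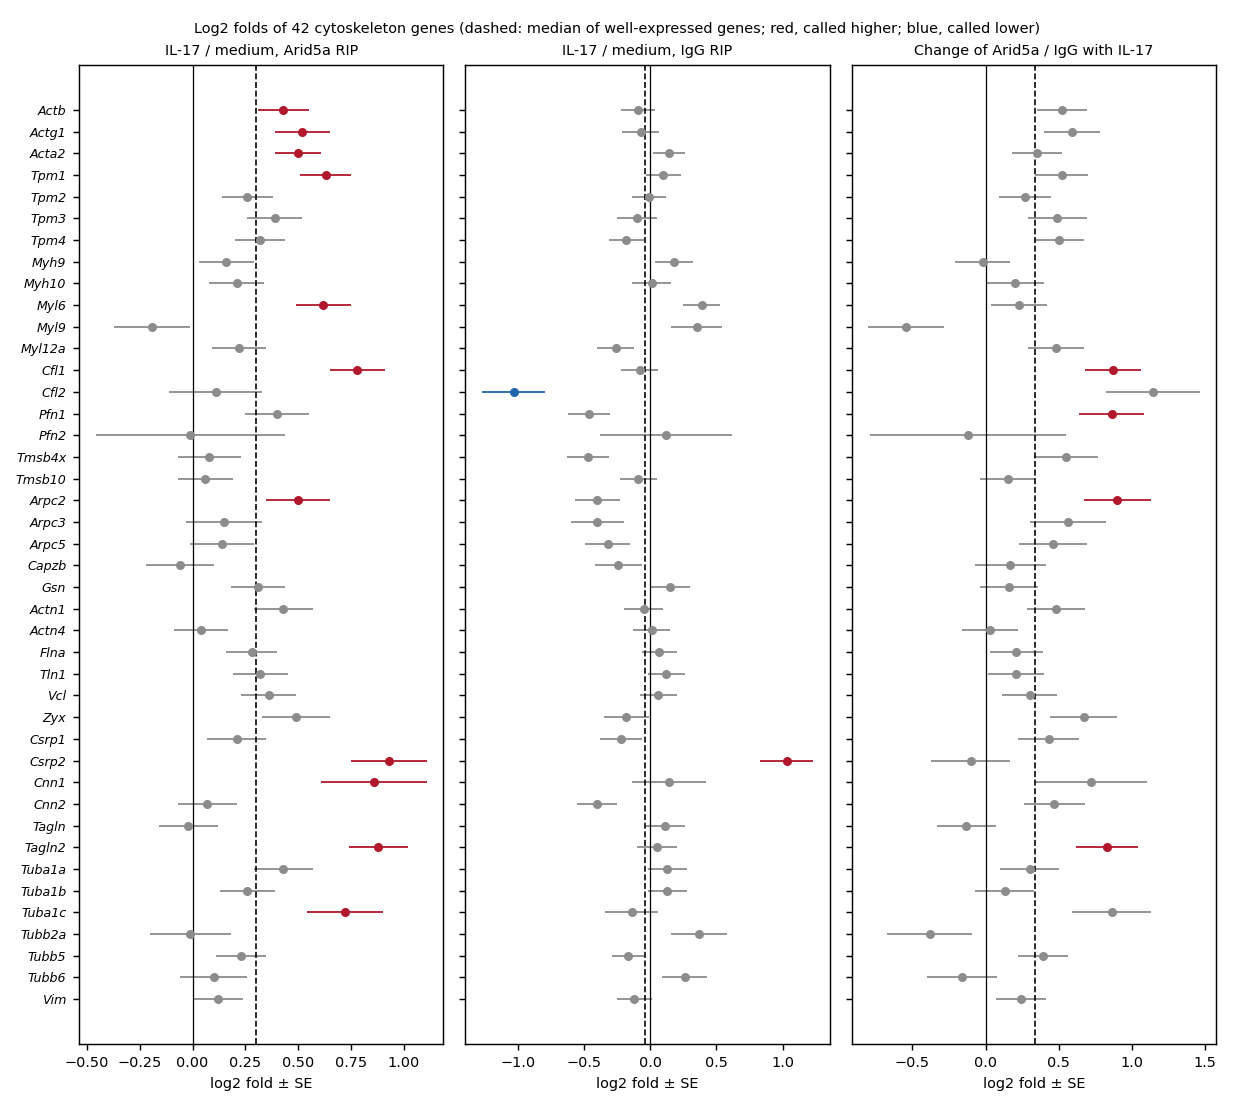
Log2 folds ± SE of the 42 genes for IL-17 against medium in the Arid5a RIP (left) and the IgG RIP (middle), and for the change of the Arid5a against IgG difference with IL-17 (right). Red points were called higher and blue points lower, and the dashed line is the median of well-expressed genes (0.30, -0.04 and 0.34); the points gather around it in each panel, with Csrp2, Tagln2 and Cfl1 to its right on the left.

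The actins moved together. Actb (chr5:142903115-142907976) had 10040, 10130, 8625 and 6594 CPM in the Arid5a RIP with IL-17, 6601, 6927 and 6709 CPM in the IgG RIP with IL-17, 6449, 7349, 5889 and 6628 CPM in the medium Arid5a RIP, and 7200, 6701, 7691 and 7122 CPM in the medium IgG RIP. Replicates 1 to 3 of the Arid5a RIP with IL-17 lay above all other 12 libraries, and replicate 4 lay among them. With IL-17 in the Arid5a RIP, Actb rose by 0.43 ± 0.12 (adjusted p = 0.0247), although the groups overlapped through replicate 4.

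Actg1 (chr11:120345687-120348495), whose product differs little from that of Actb, followed the same pattern. It had 3902, 4196, 3406 and 2338 CPM in the Arid5a RIP with IL-17, against 2481, 2593, 2185 and 2405 CPM in the medium Arid5a RIP. The rise was 0.52 ± 0.13 (adjusted p = 0.0134), with replicate 4 again inside the range of medium. Acta2 (chr19:34240336-34255585), a marker of myofibroblasts and smooth muscle, had 5139, 4982, 4401 and 3748 CPM in the Arid5a RIP with IL-17, against 3106, 3301, 3002 and 3543 CPM in the medium Arid5a RIP. These groups did not overlap, and the rise was 0.50 ± 0.11 (adjusted p = 0.00616).

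With IgG the actins had folds of -0.09 ± 0.13 (Actb), -0.07 ± 0.14 (Actg1) and 0.14 ± 0.12 (Acta2) with IL-17, and none was called. Their interaction folds were 0.52, 0.59 and 0.35, also not called. With factors from well-expressed genes the rises in the Arid5a RIP were 0.11, 0.20 and 0.19 for Actb, Actg1 and Acta2, and none was called.

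Of the 9 myosin and tropomyosin genes, Tpm1 and Myl6 rose with IL-17 in the Arid5a RIP. Tpm1 (chr9:67022590-67049672), a tropomyosin that coats and stabilises actin filaments, had 2039, 1977, 1798 and 1438 CPM with IL-17, against 1308, 973.1, 1183 and 1233 CPM in medium. The groups were apart, and the rise was 0.63 ± 0.12 (adjusted p = 0.0014). Its share of the tropomyosin FPKM was 48.0% ± 3.08 in the Arid5a RIP with IL-17, against 40.5% ± 1.53 in the Arid5a RIP in medium (SD, n = 4 each). With IgG the share was 44.5% ± 1.34 with IL-17, against 40.5% ± 0.276 in medium (SD, n = 3 and 4). The Tpm1 groups were apart there too, with a fold of 0.10 ± 0.13 that was not called. Tpm2, Tpm3 and Tpm4 had folds of 0.26, 0.39 and 0.32 in the Arid5a RIP and were not called.

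Myl6 (chr10:128490859-128493886), for which the window of an inner start is printed above, had 1401, 1439, 1168 and 1143 CPM in the Arid5a RIP with IL-17, against 887.8, 610.5, 897 and 963.6 CPM in the medium Arid5a RIP. Its rise was 0.62 ± 0.13 (adjusted p = 0.00349) and the groups were apart. With IgG the level was also higher in each IL-17 library, with 1018, 1051 and 1123 CPM, against 913.3, 770.5, 754.8 and 816.6 CPM in medium, but the fold of 0.39 ± 0.14 was not called (adjusted p = 0.251). The heavy chains did not pass the test: Myh9 had 0.16 ± 0.13 and Myh10 0.21 ± 0.13 in the Arid5a RIP.

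Myl9, the regulatory light chain of smooth muscle type that also carries a CArG box, had the lowest fold of the well-expressed members with IL-17 in the Arid5a RIP (-0.19 ± 0.18) and in the interaction (-0.54 ± 0.26), and was not called in either. Its level in the IgG RIP in medium was 224.7 CPM in replicate 1 and 115.7 to 126.8 CPM in the others. Without that replicate, Myl9 was called in the interaction (-0.83, adjusted p = 0.0497) and for Arid5a against IgG in medium (0.74, adjusted p = 0.0146). Among the risers in the Arid5a RIP, 9 had a promoter window and 2 of these held a CArG box. Of the 29 genes with a window that were not called there, 3 held one.

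Genes of monomer supply and filament turnover did not move as a single group. Cfl1 (chr19:5490455-5494031), the main cofilin, which severs filaments, had 1810, 2107, 1656 and 1364 CPM in the Arid5a RIP with IL-17, 960.2, 1388 and 1221 CPM in the IgG RIP with IL-17, 1065, 925.2, 1047 and 992.1 CPM in the medium Arid5a RIP, and 1164, 1334, 1297 and 1244 CPM in the medium IgG RIP. The highest values lay in the Arid5a RIP with IL-17 and the lowest group was the Arid5a RIP in medium. IL-17 against medium in the Arid5a RIP gave a rise of 0.78 ± 0.13 (adjusted p = 0.000207), and 0.47 ± 0.10 (adjusted p = 0.015) with factors from well-expressed genes. The interaction was 0.87 ± 0.19 (adjusted p = 0.0223), and 0.52 ± 0.15 with those factors (adjusted p = 0.157).

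Cfl2 (chr12:54858815-54862877), the cofilin typical of muscle, behaved otherwise. It had 74.21, 72.24, 68.16 and 47.85 CPM in the Arid5a RIP with IL-17, 53.75, 48.68 and 64.6 CPM in the IgG RIP with IL-17, 58.97, 61.54, 59.92 and 63.96 CPM in the medium Arid5a RIP, and 65.55, 187.6, 130 and 84.54 CPM in the medium IgG RIP. The last group was spread over a wide range, and its replicates 2 and 3 were the highest of all libraries. Cfl2 fell by 1.03 with IL-17 in the IgG RIP (SE 0.24, adjusted p = 0.0366) and by 0.89 in Arid5a against IgG in medium (SE 0.22, adjusted p = 0.047). With both of those replicates removed, the folds were -0.40 ± 0.21 and -0.30 ± 0.20 and neither was called. Its fold in the Arid5a RIP was 0.11 ± 0.22.

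Pfn1 (chr11:70651844-70656799), the general profilin, which delivers monomers to growing ends, was called in the interaction (0.86 ± 0.22, adjusted p = 0.0435). It had 881.3, 1061, 823.1 and 605.6 CPM in the Arid5a RIP with IL-17 and 664.7, 636 and 672.3 CPM in the IgG RIP with IL-17. In medium it had 681.5, 674.5, 568.8 and 623.1 CPM with Arid5a and 728.2, 1166, 999.7 and 730.5 CPM with IgG. The level was thus lower in every Arid5a library than in every IgG library in medium, while the groups overlapped with IL-17. Its annotated span overlaps that of Eno3, and the strand setting of the counting is not given in the sources used here.

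Arpc2 (chr1:74236490-74268209), a core subunit of the Arp2/3 complex, had 285.1, 264.3, 265.4 and 192 CPM in the Arid5a RIP with IL-17 and 169.8, 180.7 and 203.4 CPM in the IgG RIP with IL-17. In medium it had 182.1, 188.3, 148.5 and 193.4 CPM with Arid5a and 203.1, 326.8, 243.4 and 207.8 CPM with IgG. Replicate 2 of the IgG RIP in medium, the shallowest library, was the highest of all. The interaction was 0.90 ± 0.23 (adjusted p = 0.0435), and the rise in the Arid5a RIP was 0.50 ± 0.15 (adjusted p = 0.047) with overlapping groups. The other listed subunits, Arpc3 and Arpc5, had interaction folds of 0.56 ± 0.26 and 0.46 ± 0.23 and were not called.

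The thymosins, which hold monomers in reserve, showed no call. Tmsb4x had -0.55 ± 0.15 for Arid5a against IgG in medium (adjusted p = 0.073) and -0.47 ± 0.16 for IL-17 against medium in the IgG RIP. Its highest levels, 804.2 and 653.7 CPM, were in replicates 2 and 3 of the IgG RIP in medium, the libraries in which Cfl2 and Pfn1 were also high. Tmsb10 had folds between -0.21 and 0.15 over the 5 comparisons. Arpc5 had the second lowest fold for Arid5a against IgG in medium (-0.59 ± 0.15, adjusted p = 0.0614), with the groups apart. Arpc3 had -0.52 ± 0.18 in that comparison, Capzb (a subunit of the capping protein) -0.21 ± 0.16 and Gsn (the severing protein gelsolin) -0.03 ± 0.14.

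**Figure D3:**
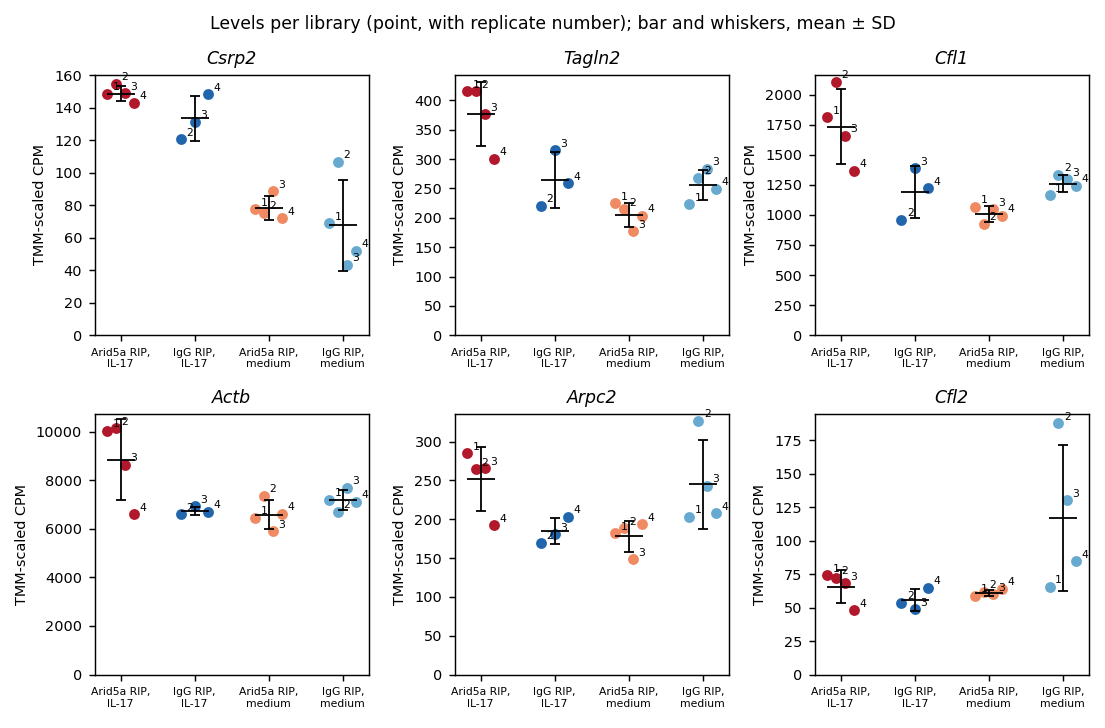
Levels in TMM-scaled CPM of 6 cytoskeleton genes, 1 point per library with its replicate number, and the mean ± SD of each group. Csrp2 lies between 120.6 and 154.7 CPM in the IL-17 libraries of both precipitations and at 106.7 CPM or lower in medium. For Tagln2, Cfl1 and Actb, replicates 1 to 3 of the Arid5a RIP with IL-17 lie above all other libraries, and its replicate 4 does not.

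Csrp2 was the gene of the list that rose with IL-17 in both precipitations. It encodes a LIM-domain protein of smooth muscle and stromal cells that binds actin-associated partners, and lies at chr10:110920176-110939514. Its levels were 148.6, 154.7, 148.8 and 143 CPM in the Arid5a RIP with IL-17, 120.6, 131.3 and 148.3 CPM in the IgG RIP with IL-17, 77.54, 75.17, 88.53 and 71.99 CPM in the medium Arid5a RIP, and 68.86, 106.7, 43.34 and 51.88 CPM in the medium IgG RIP. All 7 IL-17 libraries lay above all 8 medium libraries, replicate 4 of the Arid5a RIP included, as they also did for Tpm1 and Myl6.

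With IL-17, Csrp2 rose by 0.93 ± 0.18 in the Arid5a RIP (adjusted p = 0.00154) and by 1.03 ± 0.20 in the IgG RIP (adjusted p = 0.00689). The difference between these was -0.10 ± 0.27 (adjusted p = 0.876, interval from -0.63 to 0.42 at 95%), and Arid5a against IgG gave 0.16 ± 0.19 with IL-17 and 0.27 ± 0.19 in medium. Under 28 alternatives the fold stayed between 0.62 and 0.99 in the Arid5a RIP and between 0.87 and 1.28 in the IgG RIP, and was called in 25 and 26 of them. Factors from well-expressed genes gave 0.62 ± 0.17 in the Arid5a RIP (adjusted p = 0.058) and 1.06 ± 0.19 in the IgG RIP (adjusted p = 0.00348).

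The other crosslinking and adhesion genes were not called in any comparison. Actn1 and Zyx, an alpha-actinin and a focal adhesion LIM protein, came closest, with folds of 0.43 ± 0.14 and 0.49 ± 0.16 for IL-17 in the Arid5a RIP (adjusted p = 0.0569 and 0.0567). Vcl and Tln1, which link integrins to actin, had 0.36 ± 0.13 and 0.32 ± 0.13, Flna (a filamin) 0.28 ± 0.12, Csrp1 0.21 ± 0.14 and Actn4 0.04 ± 0.13. In Tln1, Vcl, Actn1 and Actn4 the level of replicate 4 of the Arid5a RIP with IL-17 lay far below the other 3. Tln1, for example, had 697.1, 690.2, 688.3 and 471.7 CPM with IL-17, against 527.1, 487, 490.2 and 534.5 CPM in the medium Arid5a RIP. Without that replicate Actn1, Flna, Tln1, Vcl and Zyx were called higher.

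Tagln2 (chr1:172500246-172507375), the transgelin of nonmuscle cells, had the smallest adjusted p of the list. It had 415.7, 415.6, 376.4 and 300.4 CPM in the Arid5a RIP with IL-17, 220.6, 314.9 and 258.9 CPM in the IgG RIP with IL-17, 224.5, 214.8, 177.1 and 203 CPM in the medium Arid5a RIP, and 222.7, 268.4, 283.1 and 249.1 CPM in the medium IgG RIP. Every Arid5a library with IL-17 lay above every Arid5a library in medium, and 3 of the 4 lay above every IgG library.

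The rise in the Arid5a RIP was 0.88 ± 0.14 (adjusted p = 0.000162) and was called under all 28 alternatives, with folds of 0.57 to 0.97. With IgG the fold was 0.05 ± 0.15. The interaction was 0.83 ± 0.21 (adjusted p = 0.0427), but 0.49 ± 0.17 with factors from well-expressed genes (adjusted p = 0.214), and it was called under 9 of 27 alternatives. Over these the adjusted p ran from 0.00189 to 0.232.

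Tagln, the smooth muscle transgelin, did not follow Tagln2. It had 572.1, 430, 469.3 and 529.4 CPM in the Arid5a RIP with IL-17, against 522.9, 485.3, 467 and 556.8 CPM in the medium Arid5a RIP, a fold of -0.02 ± 0.14. Cnn1 (chr9:22099221-22109221), the basic calponin of contractile cells, is a gene of low level and had 63.73, 47.85, 40.97 and 44.17 CPM with IL-17, against 23.78, 18.59, 27.7 and 37.55 CPM in medium in the Arid5a RIP. Its rise was 0.86 ± 0.25 (adjusted p = 0.0351) with the groups apart, and was called under 15 of 28 alternatives. Cnn2, a calponin with a CArG box, had 0.07 ± 0.14 in the Arid5a RIP and -0.40 ± 0.15 in the IgG RIP and was not called. Summed levels of smooth muscle markers outside the list ran from 145.4 to 164.2 CPM in the Arid5a RIP with IL-17, 129.7 to 170.2 CPM in the IgG RIP with IL-17, 142.9 to 211.8 CPM in the medium Arid5a RIP and 105.6 to 187.8 CPM in the medium IgG RIP. Of these 5 markers 4 had a mean of at least 1 FPKM, and their part in the result was not tested.

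Among 6 tubulin genes, Tuba1c (chr15:99029891-99038105) rose with IL-17 in the Arid5a RIP. It had 344.7, 335.2, 274 and 194.5 CPM with IL-17, against 136.5, 251.1, 169.5 and 144.2 CPM in medium. Its groups overlapped, and the rise was 0.72 ± 0.18 (adjusted p = 0.0147). Its counts were not whole, to within 0.001, in 14 of 15 libraries, so that reads may be shared with Tuba1a and Tuba1b, which had folds of 0.43 ± 0.14 (adjusted p = 0.0568) and 0.26 ± 0.13 in the same comparison. Summed over these 3 genes, the level was 1503 ± 267.3 CPM with IL-17, against 1162 ± 82.24 CPM in medium (SD, n = 4 each).

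The beta-tubulins were not called. Tubb5, the most abundant, had 0.23 ± 0.12 in the Arid5a RIP and -0.17 ± 0.12 in the IgG RIP, Tubb6 had 0.10 ± 0.16 and 0.26 ± 0.17, and Tubb2a had -0.01 ± 0.19 and 0.37 ± 0.21. Vim, first in level, differed little between conditions. It had 8464, 7566, 7801 and 6078 CPM in the Arid5a RIP with IL-17, against 8004, 6361, 6407 and 6716 CPM in the medium Arid5a RIP, a fold of 0.12 ± 0.12 that was not called.

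**Figure D4:**
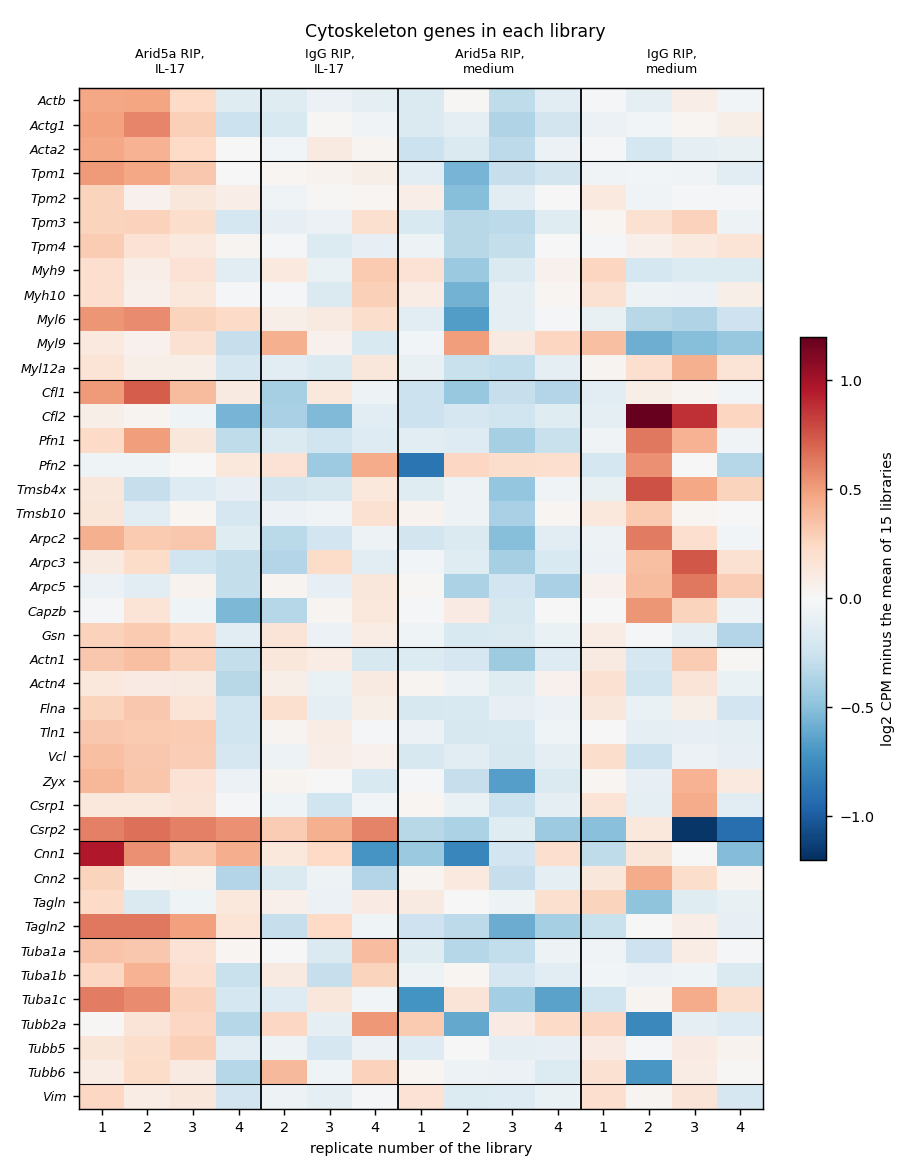
Each gene's log2 CPM in each library minus its mean over the 15 libraries, grouped by role, from the actins at the top to vimentin at the bottom; values beyond the colour bar are drawn in its end colours. Replicates 1 to 3 of the Arid5a RIP with IL-17 are mostly red and replicate 4 mostly blue, and Csrp2 is red in all 7 IL-17 libraries. Most turnover genes are red in replicates 2 and 3 of the IgG RIP in medium, but Cfl1 and Gsn are near their means there.

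Summed over the list, levels were 59810, 58380, 54630 and 43440 CPM in the Arid5a RIP with IL-17, against 46170, 41470, 40430 and 44810 CPM in the medium Arid5a RIP. With IgG they were 46470, 45970 and 49180 CPM with IL-17, against 50270, 46050, 49070 and 45030 CPM in medium. Replicate 4 of the Arid5a RIP with IL-17 lay within the range of medium. It exceeded every Arid5a library in medium for 10 of the 42 genes, whereas replicates 1, 2 and 3 did so for 37, 30 and 31. It lay below every one of them for 11 genes, and replicates 1, 2 and 3 did so for 0, 1 and 0. As a share of each library's counts, with no scaling factor, the list took 4.98% ± 0.34 in the Arid5a RIP with IL-17, 4.73% ± 0.095 in the IgG RIP with IL-17, 4.72% ± 0.083 in the Arid5a RIP in medium and 4.61% ± 0.268 in the IgG RIP in medium (SD, n = 4, 3, 4 and 4).

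The effective length of a gene, recovered as the length that links its count to its FPKM, stood 81, 105, 54 and 29 bases below its median over libraries in replicates 1, 2, 3 and 4 of the Arid5a RIP with IL-17 (-81, -105, -54 and -29). It stood between -41 and 31 bases from that median in the IgG RIP with IL-17, 9 to 23 bases above it in the Arid5a RIP in medium, and between -24 and 21 in the IgG RIP in medium. Of the 4 Arid5a libraries with IL-17, replicate 4 was nearest to the median in length and lowest in summed level. In the IgG RIP the library with the lowest offset was also the lowest in sum, both with IL-17 and in medium. In the Arid5a RIP in medium the library with the lowest offset, replicate 1 at 9 bases, was the highest in sum (46170 CPM). The part of length in the result was not tested. Folds in the Arid5a RIP had a Pearson correlation of -0.08 with log2 length across the 42 genes, which share libraries and are not independent. The median fold was 0.21 in the 21 genes shorter than 1659 bases and 0.32 in the 21 longer ones.

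**Figure D5:**
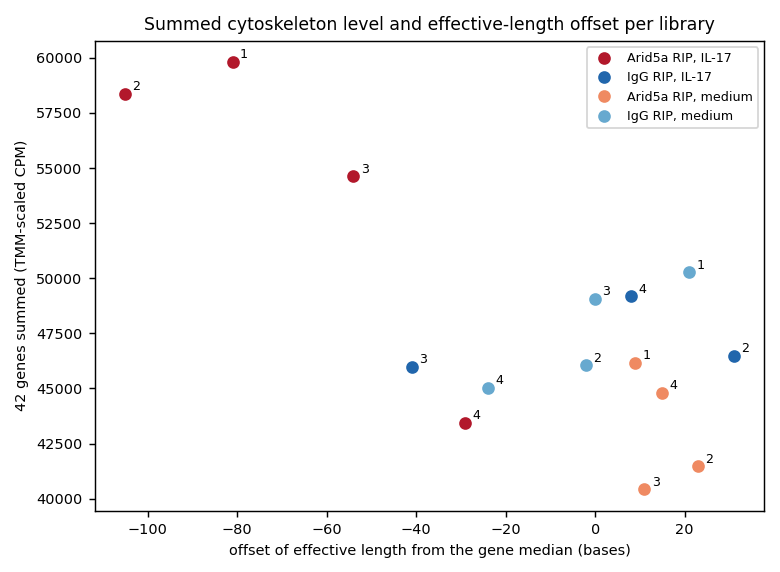
Summed level of the 42 genes (TMM-scaled CPM, vertical) against the offset of effective length from the gene's median over libraries (bases, horizontal), 1 point per library with its replicate number. Replicates 1, 2 and 3 of the Arid5a RIP with IL-17 lie apart at offsets of -81, -105 and -54 bases and 54630 CPM or more, and replicate 4 of that group lies at -29 bases and 43440 CPM among the other libraries.

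Genes of the same pathways that are not on the list were taken from 9 lists, among them Arp2/3 and nucleators, actin binding, myosin, focal adhesion, SRF targets, other tubulins, microtubule binding and other intermediate filaments. These held 182 genes, of which 181 were tested. With IL-17 in the Arid5a RIP 25 rose (13.8%) and 2 fell (1.1%), with a median fold of 0.21. Over all genes tested 4.84% rose and 0.813% fell, and 15.4% of well-expressed genes rose. With factors from well-expressed genes 0.65% of all genes rose and 1.16% fell, and the calls of the 181 under them are not given here. Risers included Itga5 (an integrin chain, 0.99 ± 0.15), Ccn2 (an SRF and YAP target, 0.79 ± 0.13) and Actr2 (an Arp2/3 subunit, 0.78 ± 0.14). Fos, an immediate early SRF target, fell by 1.40 (SE 0.40), and Myh14, a nonmuscle myosin heavy chain of low level here, fell by 2.28 (SE 0.70).

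With IgG, 1 of the 181 was called higher and 3 lower, where 0.258% and 0.235% of all genes were. Egr1 (an immediate early transcription factor, -1.16 ± 0.18), Fos (-1.98 ± 0.47) and Lims1 (an adhesion adaptor, -0.65 ± 0.16) fell. The interaction was called higher for Pls3, Capza2, Mapre1, Cdc42 and Actr2, with folds of 0.85 to 1.33, and lower for 0 of the 181 (2.76% higher, beside 0.869% of all genes and 2.82% of well-expressed genes). Arid5a against IgG in medium was lower for Cap1, Pls3 and Capza2, with folds of -0.98 to -0.79 (1.66%, beside 0.572% of all genes and 1.85% of well-expressed genes). With IL-17 that comparison gave 0 calls by edgeR, beside 23 of 181 genes at an unadjusted p below 0.05, where 8.95% of all genes and 14.1% of well-expressed genes were. The transcript of Arid5a itself, whose protein was the target of the antibody, was not called in any comparison. Its folds were -0.17 ± 0.38 for Arid5a against IgG with IL-17 and -0.07 ± 0.37 in medium, and 0.35 ± 0.36 for IL-17 against medium in the Arid5a RIP and 0.45 ± 0.39 in the IgG RIP.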

How the data were processed

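The authors deposited, for 15 RIP-seq libraries, expected counts per gene and FPKM values. The deposited expected counts hold estimates that are not normalised, and the deposited FPKM, scaled by length and mapped total, served for levels between genes. STAR 2.7.9, RSEM 1.3.1, DESeq2 1.36.0, R 4.3.0 and mm10 are named, per the submitters' processing notes. The role of each tool, the gene annotation and the strandedness of counting are not given in the sources used here. A stranded kit is named per the labels' protocols. Rounded counts went into edgeR 4.0.16 (R 4.3.3) with filterByExpr by group, TMM factors and a robust quasi-likelihood fit of 4 group means. Totals of 939139 to 5713913 counts and a biological coefficient of variation of 0.341 set the precision. Coordinates and promoters came from RefSeq tables of GRCm38.p6.

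Genes and lists were chosen with earlier results of these data known. Named were all called members, the 3 highest and 3 lowest well-expressed folds per comparison, 16 members chosen by name, and up to 4 called genes per pathway list, of which some are not reported here. Marker lists of epithelial, endothelial and neural cells summed to at most 119.2 CPM. Alternatives were upper-quartile factors, library totals, TMM from well-expressed genes, DESeq2 1.42.0, limma 3.58.1 voom with quality weights, other filters, fits of the compared libraries alone, a replicate block, limma on log2 FPKM with 1 or 0.1 added, and removal of each library. Added after seeing the data were 2 joint removals. The procedure was tested on simulated data, with changed genes drawn from all genes tested. For Arid5a against IgG it recovered 31 of 96 genes changed 2-fold with IL-17 and 30 of 99 in medium. For IL-17 against medium it recovered 32 of 96 in the Arid5a RIP and 23 of 94 in the IgG RIP, and 15 of 97 for the interaction. A gene that was not called can therefore still differ.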

Additional observations from a re-analysis of the deposited data

Results flagged for a closer look

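In groups of 4 libraries, a single library stood far from the others of its group in 10 of 129 combinations. These paired each group with each gene or with the summed level. The rule marks about 5% of single tests by chance, but the genes share libraries, so that share is not a chance level for this count. Of these, 5 were low values of replicate 4 of the Arid5a RIP with IL-17. Tln1, the integrin linker talin, had 471.7 CPM there, with 688.3 to 697.1 CPM in the other 3. Actn4 had 636.5 CPM with 857.9 to 870.7 CPM in the others, Vcl 668.7 CPM with 944.6 to 988.5 CPM, Tpm3 308.9 CPM with 415.3 to 433.4 CPM, and Actn1 763.6 CPM with 1126 to 1197 CPM.

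In replicate 1 of the IgG RIP in medium, 3 contractile genes were high. Myl9 had 224.7 CPM with 115.7 to 126.8 CPM in the others, Myh9 7743 CPM with 5586 to 5790 CPM, and Tpm2 1291 CPM with 1155 to 1175 CPM. Tpm1 was low in replicate 4 of that group (1309 CPM, with 1390 to 1399 CPM in the others), and Pfn2 in replicate 1 of the Arid5a RIP in medium (4.235 CPM, with 9.582 to 9.913 CPM).

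The difference between Arid5a and IgG changed with IL-17, by the test of that change itself, for 4 genes of actin turnover and binding. Its log2 size was 0.90 for Arpc2, 0.87 for Cfl1, 0.86 for Pfn1 and 0.83 for Tagln2. These calls were lost under each of the other scalings of the counts that were run with edgeR, and were also made by DESeq2 and limma voom.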

How the results depend on the processing

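No fold of a called gene changed direction under the alternatives run. Cfl1 and Tagln2 in the Arid5a RIP and Csrp2 and Cfl2 in the IgG RIP kept their call under the other scalings with edgeR and DESeq2. These scalings were upper-quartile factors, library totals and factors from well-expressed genes. Most counts of called genes in this section are given without the share of all genes called. Such counts cannot show whether the list moved more than the table as a whole. In the Arid5a RIP, 4.84% of all genes rose and 0.813% fell with TMM. With factors from well-expressed genes 0.65% rose and 1.16% fell. Counts of called genes of the list moved as follows. In the Arid5a RIP (11 for IL-17 against medium) they were 4 with upper-quartile factors, 4 with library totals, 2 with factors from well-expressed genes, 26 with limma voom, and 4 and 2 on log2(FPKM + 1) and log2(FPKM + 0.1). Joint removal of Arid5a IL-17 replicate 4 and IgG medium replicate 2 gave 23 and that of IgG medium replicates 2 and 3 gave 18. In the IgG RIP (2) counts were 1 with voom, 0 with only the libraries compared, 1 and 0 on the FPKM scales, and 1 after either joint removal. For Arid5a against IgG with IL-17 (0) voom gave 8 and the first joint removal 6. In medium (1) DESeq2 gave 5, and upper-quartile factors, totals, factors from well-expressed genes, the stricter filter, only the libraries compared, both FPKM scales and both joint removals gave 0. The interaction (4) gave 0 with those 3 scalings and on both FPKM scales, 17 with voom, 1 with the stricter filter, 16 after the first joint removal and 0 after the second.

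Leaving out each library in turn gave 5 to 23 called genes in the Arid5a RIP, 1 to 3 in the IgG RIP, 0 to 3 for Arid5a against IgG with IL-17, 0 to 5 in medium and 0 to 11 for the interaction. Their median folds ran from 0.23 to 0.37, -0.05 to 0, 0.10 to 0.24, -0.21 to -0.12 and 0.33 to 0.44. Other medians under upper-quartile factors, totals and factors from well-expressed genes were 0.06, 0.02 and -0.03 in the Arid5a RIP, 0.04, 0.03 and -0.01 for Arid5a against IgG with IL-17, -0.01, 0.01 and 0.01 in medium, and 0.11, 0.07 and 0.04 for the interaction. On both FPKM scales they were 0.11 in the Arid5a RIP, 0 in medium and 0.19 for the interaction. The summed level was 49960 CPM in the Arid5a RIP with IL-17, against 47530 CPM in the Arid5a RIP in medium, with totals, and 48580 against 48170 CPM with factors from well-expressed genes (54060 against 43220 CPM with TMM). The cause of these moves was not tested.

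Same-numbered libraries correlated in their deviations with a median of -0.012 (21 pairs, 1 over 0.1). Differently numbered libraries had a median of -0.002 (63 pairs, 8 over 0.1). These values cannot show whether same-numbered libraries were prepared together, since a small shared effect would look the same. With the replicate number as a block, called genes numbered 9 in the Arid5a RIP, 2 in the IgG RIP, 0 for Arid5a against IgG with IL-17, 0 in medium and 1 for the interaction. Depth limited Pfn2, with as few as 11 counts in a library.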
